A study of Mus musculus with 32 samples.

Results

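Autosomal gene expression was compared between the livers of female and male wildtype (WT) C57BL/6 mice (C57Bl/6J in the study's methods) that had been fed a choline-deficient, amino acid-defined high fat diet (CDAHFD; fat 62%, methionine 0.1%) for 8 weeks from 10 weeks of age. The comparison used 8 of the 32 libraries, 4 from CDAHFD-fed WT females and 4 from CDAHFD-fed WT males, and all autosomal genes in both deposited count tables, 36479 of 41585 gene entries, of which 13298 had enough counts to be tested. The study fed WT and Cyp2b-null mice of both sexes either CDAHFD, a model of nonalcoholic steatohepatitis (NASH), or a normal chow diet (ND; fat 6.2%), and sequenced liver RNA from 4 animals in each of 8 groups. ND-fed WT females and males (4 libraries each, same strain, age and time) were used to ask whether the sex differences depended on diet, and CDAHFD-fed Cyp2b-null females and males (4 libraries each), which lack Cyp2b9, Cyp2b10 and Cyp2b13, gave the same sex comparison in other mice. WT mice were bought at 6 weeks of age and acclimated for 4 weeks, whereas the Cyp2b-null line was made by CRISPR/Cas9 on the same background. The labels number the libraries 1 to 4 within a group without tying a number to an animal. P-values measure the spread between libraries of the same group, estimated over all 32 libraries. Libraries are called female 1 to 4 and male 1 to 4.

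The mouse liver is one of the most sexually dimorphic organs outside the reproductive tract. The pituitary releases growth hormone in pulses in males and almost continuously in females, and the hepatocyte reads this pattern through the growth hormone receptor, JAK2 and the transcription factor STAT5B. STAT5B acts with the male-biased repressor BCL6 and the female-biased repressor CUX2 to set the levels of cytochrome P450s, sulfotransferases, major urinary proteins and many secreted proteins.

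Total counts per library ranged from 3615027 to 5455002 in the females and from 4483301 to 7124262 in the males. Xist, transcribed from the inactive X chromosome, had 1418 to 3497 counts in each female library and 0 to 4 in each male library, and the Y-linked Ddx3y had at most 1 count in females and 308 to 498 in males, so every library matched its labelled sex. Male 1 stood apart from the other males: it was the highest of the 4 males for 17 of 20 tested textbook male-biased genes (85%), against 26.8% of all autosomal genes tested. It also stood apart on the second principal component of the 500 most variable genes (score 19.35, 12.1% of the variance). Results that rest on male 1 are therefore given with and without it.

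Library properties also moved with sex. Mitochondrial ribosomal RNA took 0.0603% to 0.0893% of the counts in females and 0.229% to 0.311% in males, so that all males exceeded all females. The sex difference varied with transcript length, taken as the longest annotated transcript of each gene. Over 5 groups of equal size, the median log2 difference, female minus male, fell from 0.175 in the group of shortest transcripts (up to 1698 bases) to -0.189 in the group of longest transcripts (5103 bases or more). Of the genes that passed the test, 253 of 342 in the shortest group and 33 of 272 in the longest were higher in females. ND-fed WT mice showed medians of 0.16 and -0.14 in the same groups. Females and males were counted in separate tables, so sex and any step of library preparation or sequencing that differed between the sexes cannot be told apart. A fit with a transcript-length offset, chosen after this trend was seen, flattened the medians to between -0.0384 and -0.00169 (see the plot by length). Of the genes named below, Nfe2l2 alone lost its call with it.

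**Figure D1:**
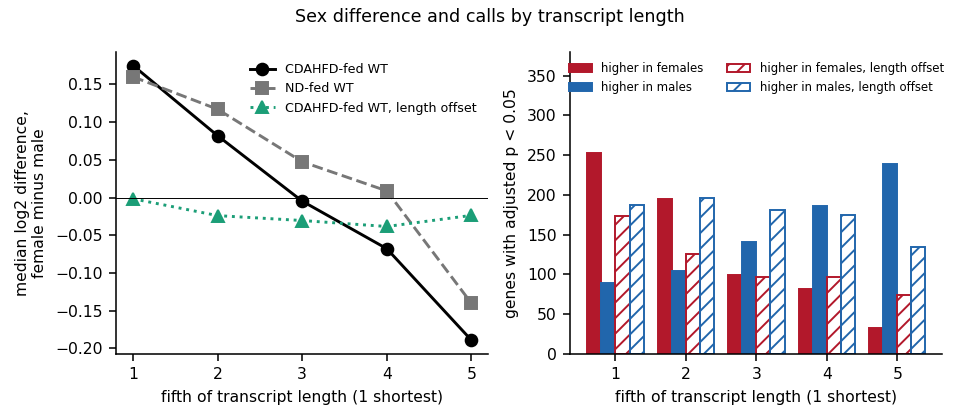
Left, median log2 difference (female minus male) of autosomal genes in each of 5 groups of transcript length for CDAHFD-fed WT (black), ND-fed WT (grey) and CDAHFD-fed WT with the length offset (green). Right, number of genes with an adjusted p under 0.05 in each group, filled without and hatched with the offset. Without the offset the shortest group held 253 genes higher in females and 89 higher in males, and the longest 33 and 239.

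In CDAHFD-fed WT livers, 1457 of 13298 autosomal genes (11%) differed between the sexes at an adjusted p under 0.05 (edgeR's quasi-likelihood test, Benjamini-Hochberg adjustment over all 14020 genes tested). Of these, 676 (5.08% of genes tested) were higher in females and 781 (5.87%) were higher in males. Large differences leaned the other way, since 223 called genes were more than 1 on the log2 scale higher in females and 140 in males. The 4 females and 4 males did not overlap in counts scaled to library size (CPM) for 2322 genes (17.5%), and 1164 of the called genes were among them. The median size of the difference among called genes was 0.696 on the log2 scale, and the median over all autosomal genes tested was -0.00603. Scaling by library size alone, without normalization factors, moved that median to 0.041 and turned the split of calls to 708 higher in females and 450 higher in males, so the balance between the directions depends on the scaling. The count of 1457 fell to 754 without female 2, to 849 without female 4 and to 652 without male 2, was 1162 without male 1, and was 1478 with the length offset, which called 1178 of the same genes. Calls were spread over all autosomes, from 9.55% of genes tested on chromosome 17 to 15.3% on chromosome 19. In whole liver, a lower share of one cell type and less RNA per cell cannot be told apart.

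**Figure D2:**
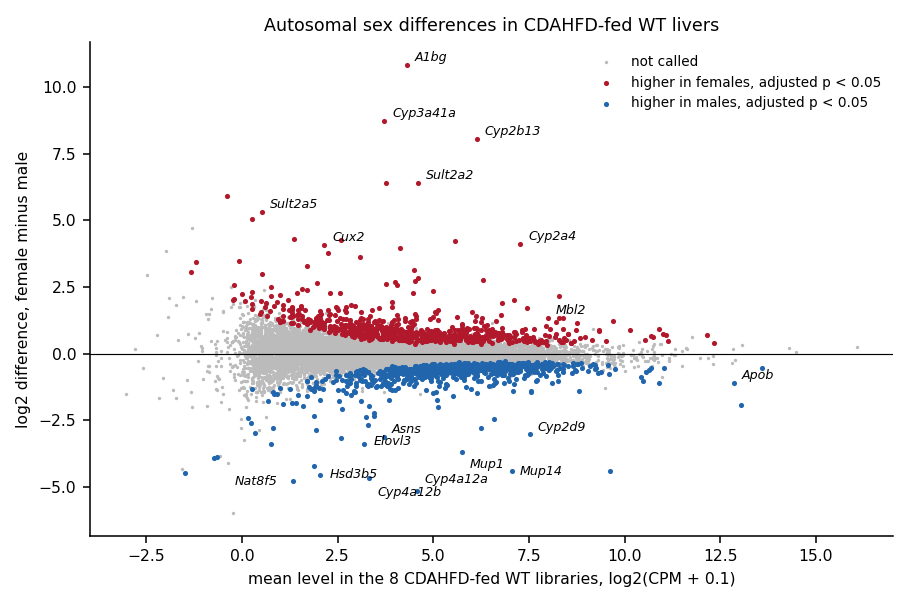
Log2 difference (female minus male) of each autosomal gene tested against its mean level in the 8 CDAHFD-fed WT libraries, log2(CPM + 0.1). Red points were higher in females and blue points higher in males at an adjusted p under 0.05; the 676 red points reach further from 0 than the 781 blue ones. For genes with no counts in one sex, such as A1bg, the plotted value depends on the fit's prior count.

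Most genes known to be female-biased in mouse liver differed in that direction on CDAHFD. Of 30 textbook female-biased genes, all of which were tested, 23 were higher in females and none in males, with a median log2 difference of 2.91 (23 also with the length offset, 22 without male 1). For this list and those below, a count "without" a library is the number of members called in the same direction when that library was left out, given where it moved by over 1.5 times. Likewise, a log2 difference "without" a library is given where its fold moved by over 1.5 times. Counts are to be read against all autosomal genes tested, of which 5.08% were higher in females and 5.87% in males. Some genes, such as Cyp2b13, Sult2a2, Hamp2, Glul and Lpl, are members of several lists. Counts of lists that share members are therefore not separate results. The called share was within 1.5 times of the 11% over all genes for 10 of the 39 lists, namely nuclear receptors, P450 family 4, UDP-glucuronosyltransferases, fatty acid synthesis, choline and one-carbon metabolism, urea cycle and amino acids, complement and coagulation, chemokines and cytokines, ER stress, and iron and retinoid handling, and no difference between these lists and other genes is read from their counts. In each list and direction with no call, 0 to 2 members had an unadjusted p under 0.05 and DESeq2 also called none, except for 1 collagen or matrix gene higher in females. A1bg, which encodes a secreted plasma glycoprotein, had 30.4, 4.01, 21.5 and 103 CPM in females 1 to 4 and no counts in any male. Its level was at least 76.6-fold higher in females, taking 3 counts per male library as the floor (mean 0.519 CPM; adjusted p = 2.97e-06), or at least 35.9-fold without female 4. Female 2 was far below female 4 for this gene, yet every female was above every male.

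Cyp2b13, a P450 of the cluster that is deleted in Cyp2b-null mice, had 214, 176, 93.7 and 79.4 CPM in females and 0.379, 1.25, 0.234 and 0.355 CPM in males, a log2 difference of 8.07 ± 0.40 (SE; adjusted p = 3.95e-13, with a difference of 8.73 without male 2). Its neighbour Cyp2b10, the classical target of the xenobiotic receptor CAR, had 14.4, 7.08, 4.19 and 9.37 CPM in females and 0, 0.625, 0.585 and 1.24 in males (log2 difference 3.78, adjusted p = 6.1e-06). Cyp2b9 had 252, 181, 157 and 107 CPM in females and 69.0, 57.7, 13.8 and 47.6 in males (log2 difference 1.90, adjusted p = 9.93e-05). The sexes did not overlap for any of the 3 Cyp2b genes, and every male had over 13 CPM of Cyp2b9 but under 1.3 CPM of Cyp2b13 and of Cyp2b10. Cyp2a4, a steroid 15-alpha-hydroxylase, reached 594, 307, 80.7 and 191 CPM in females and 5.88, 15, 12.3 and 34.6 in males (log2 difference 4.12, adjusted p = 2.97e-06, with a difference of 3.51 without female 1 and 4.72 without male 4). Its close paralog Cyp2a5, the coumarin hydroxylase, had 426, 482, 182 and 203 CPM in females and 358, 336, 246 and 615 in males, which overlapped (log2 difference -0.27, adjusted p = 0.644). Reads of such near-identical pairs, including Cyp3a41a and Cyp3a41b, the Sult2a genes, Cyp4a12a and Cyp4a12b and the Mup genes, may have been split or discarded in counting, so their separate levels are uncertain.

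Sult2a2, a hydroxysteroid sulfotransferase, had 129, 34.0, 3.79 and 25.1 CPM in females and 0, 0.416, 0.351 and 1.42 in males (log2 difference 6.41, adjusted p = 1.97e-05, with a difference of 5.22 without female 1 and 7.36 without male 4). Its level varied widely among females, with female 3 lowest, but no female overlapped the males. Cyp17a1, the steroid 17-alpha-hydroxylase, had 16, 26.0, 10.4 and 78.3 CPM in females and 2.47, 2.50, 1.75 and 1.95 in males (log2 difference 3.96, adjusted p = 2.72e-05, with a difference of 3.01 without female 4). Hao2, a peroxisomal hydroxyacid oxidase, had 12.5, 2.60, 2.39 and 1.25 CPM in females and 0.190, 0.416, 0.117 and 0.177 in males (log2 difference 4.31, adjusted p = 0.00174, with a difference of 3.15 without female 1). A pair of family 3 P450s was nearly silent in males: Cyp3a44 had 7.44, 8.03, 5.98 and 23.4 CPM in females and 0.569, 0.625, 0.234 and 1.06 in males (log2 difference 4.26, adjusted p = 1.26e-05, with a difference of 3.56 without female 4), and Cyp3a41a had 3.28, 10.9, 11.4 and 78.9 CPM in females against 1 count in all male libraries together, a ratio of 747 (95% exact counting interval 134 to 29600), or 207 without female 4. Sult2a5, another hydroxysteroid sulfotransferase, had 8.75, 0.944, 0.199 and 0.625 CPM in females against 1 count in all male libraries, a ratio of 58.8 (95% exact counting interval 10.1 to 2370.0), or 13.9 without female 1, and its call was lost without female 1 (adjusted p = 0.00965 with and 0.0988 without it). These intervals cover counting error only.

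Genes known to be male-biased in mouse liver also kept their direction, and male 1 was usually the highest male. Of 22 textbook male-biased genes, 20 were tested, 14 were higher in males and none in females, with a median log2 difference of -2.04; the count was 10 and the median -1.33 without male 1. Cyp4a12a, which hydroxylates arachidonic acid to 20-HETE, had 0, 0.236, 3.79 and 0.937 CPM in females and 58.0, 27.3, 53.7 and 45.6 in males (log2 difference -5.15, adjusted p = 1.06e-08, with a difference of -6.60 without female 3). Cyp2d9, a testosterone 16-alpha-hydroxylase, had 21.2, 47.5, 71.4 and 21.6 CPM in females and 555, 259, 263 and 242 in males (log2 difference -3.03, adjusted p = 3.81e-08). Cyp4a12b, the close copy of Cyp4a12a, had 0, 0, 2.79 and 0.156 CPM in females and 20.5, 8.74, 31.4 and 16.2 in males (log2 difference -4.68, adjusted p = 1.37e-06, with a difference of -7.81 without female 3). All 3 genes separated the sexes without overlap, which the choice of the largest differences required. Their calls held when any single library was left out.

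Hsd3b5, a hydroxysteroid dehydrogenase found almost only in male liver, had 27.1, 1.04, 1.05 and 1.77 CPM in males 1 to 4 and 0.219, 0.236, 0.797 and 0 in females (log2 difference -4.54, adjusted p = 0.00495, with a difference of -5.59 without female 3 and -2.0 without male 1). Male 1 was far above the other 3 males, and without it the adjusted p was 0.129. Elovl3, an elongase of very long chain fatty acids, had 30.0, 12.5, 15.5 and 8.34 CPM in males and 1.53, 1.42, 1.4 and 1.87 in females (log2 difference -3.37, adjusted p = 0.000199). Cyp7b1, the oxysterol 7-alpha-hydroxylase, had 105, 32.7, 44.7 and 38.0 CPM in males and 15.1, 15.6, 14.7 and 10.5 in females (log2 difference -1.99, adjusted p = 5.02e-05). For these 2 genes male 1 was again highest, but the other 3 males also exceeded all females and the calls held without male 1 (adjusted p = 0.00155 and 0.00053). Serpina1e, an alpha-1-antitrypsin paralog, had 4739.6, 866, 315 and 118 CPM in males and 18.8, 21.2, 223 and 23 in females, with female 3 above male 4 (log2 difference -4.40, adjusted p = 0.00279, with a difference of -6.16 without female 3 and -2.58 without male 1; adjusted p = 0.0366 without male 1). Egfr, the receptor for epidermal growth factor, had 479, 246, 162 and 221 CPM in males and 87.8, 96.3, 123 and 100.1 in females (log2 difference -1.44, adjusted p = 0.0047).

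Among called genes of at least 1 CPM without overlap, the 12 largest male-biased differences also held 3 genes that are in none of the lists. Serpina1e, which overlapped, was not in this ranking. Scara5, a scavenger receptor that binds ferritin, had 11.9, 8.54, 4.09 and 3.02 CPM in males and 0, 0.472, 0.199 and 0.625 in females (log2 difference -4.22, adjusted p = 0.000235, with a difference of -4.83 without female 4). Nat8f5, an N-acetyltransferase paralog, had 9.29, 4.58, 2.57 and 2.48 CPM in males and a total of 3 counts in the females, a ratio of 29.7 (95% exact counting interval 9.90 to 146), and the predicted gene Gm4956 had 6.45, 1.67, 1.64 and 1.95 CPM in males and 0, 0.944, 0 and 0.156 in females (log2 difference -3.41, adjusted p = 0.00063, with a difference of -5.10 without female 2 and -2.69 without male 1). All 3 are low-count genes, and their lack of overlap was set by the choice.

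The major urinary proteins (MUPs), lipocalins that carry pheromones into urine, showed how uneven the males were. Of 22 listed genes (Mup and related genes), 19 were tested, 5 were higher in males and none in females (median log2 difference -0.59; 2 without male 1). Their longest annotated transcripts are short, and the length offset left the count at 5. Mup14 had 842, 53.7, 83.2 and 44.2 CPM in males and 4.81, 11.3, 26.5 and 5.94 in females (log2 difference -4.40, adjusted p = 0.000412, with a difference of -5.14 without female 3 and -2.31 without male 1). Mup1 had 340.0, 15.6, 24.2 and 19.2 CPM in males and 3.72, 6.85, 15.3 and 4.53 in females (log2 difference -3.71, adjusted p = 0.00453, with a difference of -4.32 without female 3 and -1.37 without male 1; adjusted p = 0.193 without male 1), and the call of Mup12 was also lost without male 1 (log2 difference -3.16 with and -1.47 without, adjusted p = 0.00947 with and 0.195 without). Male 1 was far above every other male for Mup14 and Mup1, and males 2 to 4 lay close to the highest female for Mup1. Mup20, which encodes the pheromone darcin, had 397, 866, 792 and 754 CPM in females and 1096, 693, 1269 and 956 in males, which overlapped (log2 difference -0.52 ± 0.33, adjusted p = 0.338).

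**Figure D3:**
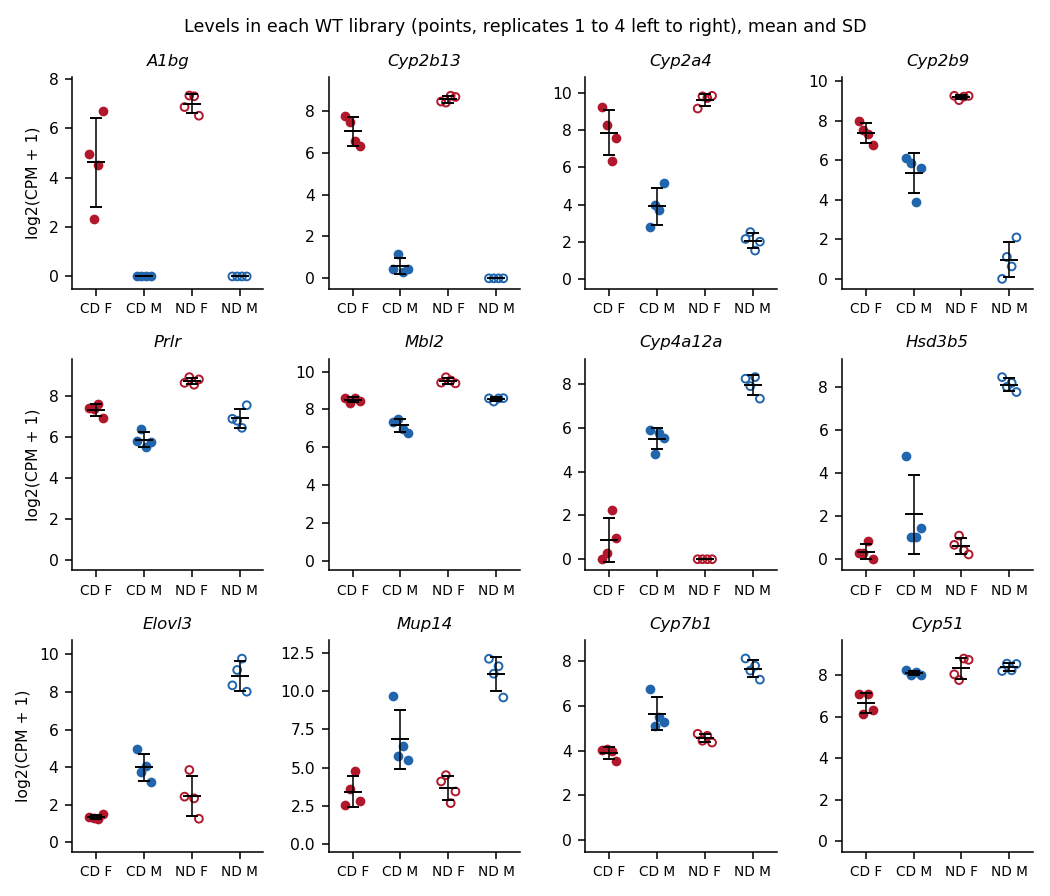
Levels of 12 genes in each WT library, log2(CPM + 1), for CDAHFD-fed females and males (CD F, CD M, filled) and ND-fed females and males (ND F, ND M, open); bars are the mean and SD of 4 libraries. A1bg and Cyp2b13 stay near 0 in all males, male 1 lies above the other CDAHFD-fed males for Hsd3b5 and Mup14, and Cyp51 separates the sexes on CDAHFD but not on ND.

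The 250 bases before the annotated start (RefSeq, GRCm38.p6) were searched for 2 short motifs. The genes searched were those with the largest sex differences without overlap and those whose sex difference changed most with diet. TTCNNNGAA, the core bound by STAT factors, reads the same on both strands. The other motif was ATTGAT or its reverse complement ATCAAT, the core bound by HNF6 and CUX2. Of 33 genes looked up, 20 had a window, 3 held TTCNNNGAA and 9 held ATTGAT. Among all windows of autosomal genes tested, 6.12% of 12423 held TTCNNNGAA and 3.97% held ATTGAT. For genes more than 1 on the log2 scale higher in females the shares were 5.12% and 8.84% of 215 windows, and for genes as far higher in males 1.02% and 12.2% of 98 windows. Windows of paralogs are near copies of each other, so these shares were not tested, and a match is a description of the letters only. The windows of A1bg, Slc22a26 and Sult3a1 from 160 bases before the start to the start are shown because they are the 3 with TTCNNNGAA, which is in capitals while other letters, ATTGAT included, are in lower case.
A1bg, chr15:60921271-60921430, minus strand: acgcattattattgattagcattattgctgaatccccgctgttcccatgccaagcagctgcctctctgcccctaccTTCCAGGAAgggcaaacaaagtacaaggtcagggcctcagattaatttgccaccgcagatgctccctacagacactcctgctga
Slc22a26, chr19:7802668-7802827, minus strand: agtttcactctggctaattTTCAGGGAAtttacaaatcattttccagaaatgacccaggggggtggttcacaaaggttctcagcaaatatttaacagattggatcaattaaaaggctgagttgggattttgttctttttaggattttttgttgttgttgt
Sult3a1, chr10:33857562-33857721, plus strand: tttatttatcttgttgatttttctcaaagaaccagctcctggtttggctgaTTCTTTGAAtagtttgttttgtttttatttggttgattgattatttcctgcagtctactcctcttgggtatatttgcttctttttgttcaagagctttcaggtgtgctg

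Of these 3 genes, A1bg and Slc22a26, an organic anion transporter, were higher in females. Slc22a26 had 50.8, 34.0, 43.6 and 39.1 CPM in females and 5.31, 11.2, 2.92 and 4.97 in males (log2 difference 2.84, adjusted p = 6.33e-07). Sult3a1, a sulfotransferase of amines, had 3 counts in all females and 2 in all males, so a difference was not detectable at this depth. The last 100 bases before the start of Cyp3a41a, Cyp3a44 and Cyp3a16 are shown because these 3 paralogs share ATCAAT (capitals) and nearly all of the surrounding letters, while the first 2 were called on CDAHFD and Cyp3a16 was not.
Cyp3a41a, chr5:145720137-145720236, minus strand: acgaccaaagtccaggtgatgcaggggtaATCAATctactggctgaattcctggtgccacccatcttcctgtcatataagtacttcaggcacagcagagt
Cyp3a44, chr5:145805875-145805974, minus strand: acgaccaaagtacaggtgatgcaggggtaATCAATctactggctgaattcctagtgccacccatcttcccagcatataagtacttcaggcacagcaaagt
Cyp3a16, chr5:145469724-145469823, minus strand: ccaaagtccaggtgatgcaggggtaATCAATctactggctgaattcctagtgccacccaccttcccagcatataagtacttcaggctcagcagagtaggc

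Without gaps, the 250 base windows of Cyp3a41a and Cyp3a44 were identical at 94.4% of positions and those of Cyp3a44 and Cyp3a16 at 95.9% of the 246 positions compared after a shift of 4 bases. Cyp3a16 had 1.97, 0.944, 0.598 and 1.25 CPM in females and 0.569, 0.416, 0.818 and 0.532 in males, which overlapped (log2 difference 0.93 ± 0.84, adjusted p = 0.517), while Cyp3a41a and Cyp3a44 did not overlap between the sexes. At these low levels a missed threshold does not show that Cyp3a16 lacked a sex difference. On ND it was higher in females (log2 difference 5.40, adjusted p = 2.18e-10), as were Cyp3a41a and Cyp3a44 (adjusted p = 2.6e-10 and 1.76e-12). The 3 genes are close copies, so reads assigned to one may have come from another.

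Within the growth hormone axis, the repressor gene Cux2 and 3 receptor genes differed between the sexes, while Stat5b, Bcl6 and Igf1 missed the threshold. Of 27 tested members of the growth hormone, STAT5 and IGF list, 4 were higher in females (Cux2, Prlr, Socs2 and Lepr) and 1 in males (Ghr; none without female 2 or male 1 and 2 without female 1 or female 3), with a median log2 difference of 0.05. Cux2 had 16.2, 6.14, 8.37 and 2.34 CPM in females and 0, 0.416, 0.468 and 0.887 in males (log2 difference 4.09, adjusted p = 0.00022). Prlr, the prolactin receptor, had 168, 163, 192 and 119 CPM in females and 55.0, 82.6, 44.3 and 52.7 in males (log2 difference 1.46, adjusted p = 3.41e-05). Neither gene overlapped between the sexes, and both calls held without any single library. Socs2, a feedback inhibitor of growth hormone signalling, had 13.8, 22.9, 50.0 and 11.6 CPM in females and 1.14, 11.4, 14.5 and 7.81 in males (log2 difference 1.45, adjusted p = 0.0239, with a difference of 0.82 without female 3; up to 0.201 without female 3 or male 1). Ghr, the growth hormone receptor, had 298, 288, 316 and 179 CPM in females and 574, 403, 319.7 and 299 in males (log2 difference -0.56, adjusted p = 0.0276; up to 0.203 without female 2, female 4, male 1 or male 2). Lepr, the leptin receptor, was higher in females (log2 difference 1.47, adjusted p = 0.0319; up to 0.129 without female 1, female 2, male 1 or male 2). Stat5b (log2 difference -0.06 ± 0.18), Hnf4a (-0.09 ± 0.14), Igf1 (0.29 ± 0.17) and Esr1 (0.15 ± 0.28) missed the threshold. Bcl6 and Onecut1, the gene for HNF6, also missed it with wide errors (-0.32 ± 0.62 and -0.13 ± 0.70). Bcl6 ranged from 6.78 to 48.0 CPM among females and from 12.9 to 66.9 CPM among males.

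Among drug-metabolizing enzymes, P450s of families 1 to 3, sulfotransferases and glutathione transferases had more members higher in females, and alcohol and aldehyde dehydrogenases more members higher in males. Among 47 tested P450s of families 1 to 3, 14 were higher in females and 2 in males (median log2 difference 0.33; 13 and 5 with the length offset; for those higher in males 1 without female 1, female 2, female 4, male 1, male 2 or male 3). Cyp2c40 had 68.5, 21.7, 37.5 and 31.1 CPM in females and 7.02, 5.62, 4.79 and 6.92 in males, which did not overlap (log2 difference 2.71, adjusted p = 2.96e-06). Cyp2c69 had 26.0, 10.2, 9.37 and 16.9 CPM in females and 0.948, 1.46, 1.05 and 1.60 in males (log2 difference 3.63, adjusted p = 6.93e-06). Of 14 P450s of family 4, which oxidize fatty acids and eicosanoids, Cyp4a12a and Cyp4a12b were higher in males and none in females (1 without male 1 or male 4). Of 13 tested sulfotransferases, 6 were higher in females and none in males (median 0.74; 3 without female 1). The phenol sulfotransferase Sult1a1 had 369, 405, 251 and 457 CPM in females and 220.0, 220.2, 212 and 235 in males (log2 difference 0.74, adjusted p = 0.00784).

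Of 19 glutathione transferases, 6 were higher in females and none in males (median 0.36; 3 without female 2, male 2 or male 3, 4 with the length offset). Gstm1 had 1193, 1242, 1129 and 1082 CPM in females and 442, 406, 508 and 630.5 in males (log2 difference 1.23, adjusted p = 0.00038), and Gstt3 and Gstt1 differed by 1.30 ± 0.21 and 0.90 ± 0.20 on the log2 scale (adjusted p = 0.000155 and 0.00345). The sexes did not overlap for these 3 genes, whose products conjugate electrophiles to glutathione. The flavin monooxygenase gene Fmo1 was higher in females (log2 difference 0.43, adjusted p = 0.00635). Of 12 carboxylesterases, Ces1c was higher in females with 3125, 2572, 2597 and 2405 CPM against 1748, 1738, 1409 and 1653 CPM (log2 difference 0.71, adjusted p = 0.00022; 2 without female 4), and Ces3b was higher in males (log2 difference -0.71, adjusted p = 0.0382, up to 0.272 without female 1, female 2, female 4 or male 1; none without female 1, female 2, female 4 or male 1 and 2 without female 3). The retinal dehydrogenase paralog Aldh1a7 was higher in males (log2 difference -0.71, adjusted p = 0.00498), 1 of 4 so among 20 alcohol and aldehyde dehydrogenases (1 without female 4 or male 1). Another of these 20 was higher in females (none without female 1 or male 3). Of 16 UDP-glucuronosyltransferases, 2 were higher in males (none without female 2, female 4, male 1 or male 2 and 1 without female 3 or male 3) and none in females.

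Transporters were divided between the sexes, with 4 of 25 higher in females and 4 in males (for those higher in males 2 without female 1, female 2, female 4 or male 1). Slc22a27, an organic anion transporter, had 80.3, 57.1, 34.3 and 41.9 CPM in females and 7.21, 15, 7.25 and 12.4 in males (log2 difference 2.37, adjusted p = 3.81e-08). Abcg5, the subunit of the biliary sterol exporter, was higher in females (log2 difference 0.88, adjusted p = 0.00229), and the efflux pump Abcg2 was higher in males (log2 difference -0.72, adjusted p = 0.0024). Slco1a1, an organic anion uptake carrier, had 339, 104, 109 and 94.4 CPM in males and 10.3, 17.2, 82.7 and 9.22 in females (log2 difference -2.44, adjusted p = 0.00494, with a difference of -3.74 without female 3 and -1.76 without male 1). None of these 4 genes overlapped between the sexes. Of 19 nuclear receptors and regulators of xenobiotic and lipid metabolism, 2 were higher in females and 1 in males (for females none without female 2 or male 2 and 1 without female 1 or male 4; for males none without female 1, female 2, female 4, male 1, male 2 or male 4). Nr1i3, which encodes CAR, was higher in females with 115, 132, 59.4 and 87.5 CPM against 51.2, 40.6, 43.3 and 75.8 CPM (log2 difference 0.90, adjusted p = 0.0102; up to 0.0636 without female 2 or male 2). Nfe2l2, which encodes NRF2, was also higher in females (log2 difference 0.47, adjusted p = 0.0291; up to 0.0889 without female 1, female 2, female 3, male 2 or male 4, and 0.0666 with the length offset). Rxra, whose product is the partner of CAR, was higher in males (log2 difference -0.37, adjusted p = 0.0344; up to 0.114 without female 1, female 2, female 4, male 1, male 2 or male 4, and 0.0861 scaled by library size alone).

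Members of the steroid hormone list were called in both directions, and the called bile acid synthesis genes were all higher in males. Of 25 tested genes of steroid hormone metabolism, 2 were higher in females and 5 in males (median 0.06; for males 2 without female 2 and 3 without male 1 or male 2). Several of the called members also belong to other lists. Hsd17b13 is in the lipid droplet list, Hsd17b7 in the cholesterol synthesis list, and Cyp7b1 and Cyp39a1 in the bile acid list. Hsd17b13, a lipid droplet retinol dehydrogenase linked to fatty liver disease in humans, had 722, 663, 568 and 714 CPM in females and 503, 505, 404 and 463 in males (log2 difference 0.51, adjusted p = 0.00423). Of 13 bile acid synthesis genes, 3 were higher in males (Cyp7b1, Cyp39a1 and Scp2) and none in females. Cyp39a1 had 51.2, 31.2, 33.7 and 49.4 CPM in females and 61.6, 77.0, 52.4 and 88.0 in males (log2 difference -0.75, adjusted p = 0.0194; up to 0.0864 without female 2, female 3, male 2 or male 4), and Scp2, which carries sterols to peroxisomes, was likewise higher in males (log2 difference -0.56, adjusted p = 0.0106; 0.0645 without male 1).

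Most cholesterol synthesis genes were higher in males. Of 20 tested autosomal members, 12 were higher in males and none in females, 18 lay below 0, and the median log2 difference was -0.86, against -0.00603 over all autosomal genes. The count was 11 without male 1, 8 to 12 as each library was left out, and 14 with the length offset. Cyp51, the lanosterol 14-alpha-demethylase, had 134, 69.6, 134 and 79.5 CPM in females and 303, 259, 281 and 254 in males (log2 difference -1.39, adjusted p = 0.000247). Sqle, the squalene epoxidase, had 49.9, 17.5, 50.6 and 32.3 CPM in females and 111, 107, 105 and 90.9 in males (log2 difference -1.46, adjusted p = 0.00377). Hmgcs1, the HMG-CoA synthase at the head of the pathway, had 282, 166, 344 and 179 CPM in females and 756, 642, 716 and 469.7 in males (log2 difference -1.41, adjusted p = 0.00574). All 4 males exceeded all 4 females for each of these genes, and females 2 and 4 were the lowest. Idi1 (log2 difference -1.38, adjusted p = 0.00377) and Tm7sf2 (log2 difference -1.0, adjusted p = 0.00238), which act at the isoprenoid and sterol reduction steps, also did not overlap.

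Other lipid genes were called in both directions. Of 27 genes of fatty acid synthesis and desaturation, 1 was higher in females and 3 in males (median -0.30; for males 1 without female 2, female 4, male 1 or male 2). Mlxipl, which encodes the carbohydrate-responsive factor ChREBP, had 99.8, 164, 92.3 and 83.9 CPM in females and 48.2, 32.3, 37.5 and 55.4 in males (log2 difference 1.34, adjusted p = 6.18e-05). Of 23 lipid droplet and fatty acid uptake genes, 5 were higher in females and 2 in males (median 0.32; for females 2 without female 1 and 3 without male 2). Lpl, the lipoprotein lipase, had 281, 528, 416 and 268 CPM in males and 156, 195, 158 and 179 in females (log2 difference -1.12, adjusted p = 0.00185), whereas the fatty acid binding protein gene Fabp2 had 137, 106, 85.7 and 156 CPM in females and 63.9, 59.7, 63.5 and 67.1 in males (log2 difference 0.93, adjusted p = 0.00328). The sexes did not overlap for Mlxipl, Lpl or Fabp2.

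Of 35 genes of fatty acid oxidation and ketogenesis, 6 were higher in females and 1 in males (median 0.28, 4 and 1 with the length offset). For females the count was 2 without female 1 or male 2 and 3 without male 1 or male 3, and for males none without female 2, female 4, male 1, male 2 or male 3. The mitochondrial dehydrogenase Hadh had 414, 398, 354 and 319 CPM in females and 300.2, 256, 269 and 264 in males (log2 difference 0.45, adjusted p = 0.00768). Among 25 apolipoprotein and lipoprotein genes, 7 were higher in females and 3 in males (median 0.23; 3 without male 2 or male 3 and 4 without female 1 or female 2 for the former, and 1 without female 2, female 4 or male 1 for the latter). Apob, which encodes the structural protein of very low density lipoprotein, had 10089, 14489, 7999.7 and 8189.6 CPM in males and 5057, 4356, 5542 and 4092 in females (log2 difference -1.10, adjusted p = 0.000356; log2 difference -0.78 with the length offset, adjusted p = 0.000111). Its longest transcript has 13934 bases, in the longest of the 5 length groups. All males exceeded all females, and male 2 was highest. Apoc3, an inhibitor of triglyceride clearance, had 1366, 1582, 1524 and 1403 CPM in females and 1099, 652, 661 and 738 in males (log2 difference 0.90, adjusted p = 0.00528). Angptl8, a feeding-induced inhibitor of Lpl, had 77.2, 8.74, 13.8 and 9.84 CPM in females and 5.12, 3.96, 4.09 and 3.55 in males (log2 difference 2.69, adjusted p = 0.00109, with a difference of 1.37 without female 1), and female 1 stood far above the other females. Tm6sf2, which aids lipoprotein lipidation, was higher in females (log2 difference 0.63, adjusted p = 0.0116).

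The called share was 19.2% of glucose and glycogen genes, 13.6% of choline, methionine and one-carbon genes and 7.69% of urea cycle and amino acid genes, against 11% of all autosomal genes. Of 26 glucose and glycogen genes, 2 were higher in females and 3 in males (median -0.07; 1 without female 1, female 2, male 2 or male 3 for the former and 1 without male 2 for the latter). Gckr, the regulator of glucokinase, had 131, 158, 112 and 111 CPM in females and 93.7, 70.4, 71.4 and 77.0 in males (log2 difference 0.71, adjusted p = 0.00111), and Pfkl, the liver phosphofructokinase, had 59.4, 60.4, 59.0 and 59.8 CPM in males and 43.1, 35.2, 36.7 and 38.0 in females (log2 difference -0.64, adjusted p = 0.00158). The sexes did not overlap for either. Of 22 choline, methionine and one-carbon genes, which bear on the nutrients the diet lacks, 3 were higher in males and none in females (median -0.16; for males none without female 4, male 1 or male 2; for females 1 without female 4 or male 1). Of 26 urea cycle and amino acid genes, 1 was higher in each sex (for females none without female 2, male 2 or male 3 and 2 without male 1; for males 2 without male 3).

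Pericentral and Wnt target genes, which mark hepatocytes around the central vein, were higher in males for 5 of 15 (33.3%, against 5.87% of all autosomal genes) and in females for none (median -0.23; 3 without female 1 or female 4). The other 10 missed the threshold, among them Axin2 (log2 difference 0.06), Lgr5 (-0.23), Cyp2e1 (-0.08) and Oat (-0.02). Of the 15 genes, 4 lay above 0. Glul, the glutamine synthetase of the innermost pericentral layer, had 1829, 1781, 2099 and 1679 CPM in males and 939, 1107, 1469 and 1083 in females (log2 difference -0.68, adjusted p = 0.00222). Slc1a2, the glutamate transporter of the same cells, had 200.2, 224, 210.2 and 225 CPM in males and 93.7, 126, 149 and 122 in females (log2 difference -0.81, adjusted p = 0.00489). Both genes separated the sexes without overlap and both calls held with any library left out. Gulo, the last enzyme of vitamin C synthesis, was also higher in males (log2 difference -0.55, adjusted p = 0.00337).

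Genes of secreted hepatocyte proteins were called in both directions, and the share for complement and coagulation (13.2%) was near the 11% over all autosomal genes. Of 38 complement and coagulation genes, 1 was higher in females and 4 in males (median -0.06; for males 1 without female 1, female 2 or male 2 and 2 without male 1, and for females 2 without male 1). Mbl2, a mannose-binding lectin, had 391, 326, 392 and 349.6 CPM in females and 160.0, 183, 125 and 109 in males (log2 difference 1.34, adjusted p = 2.97e-06), without overlap. C6, a component of the membrane attack complex, had 265, 195, 201 and 119 CPM in males and 39.0, 58.5, 131 and 68.4 in females (log2 difference -1.39, adjusted p = 0.000639), with female 3 above male 4. Of 23 acute phase genes, 6 were higher in females and none in males (median 0.34; for females 3 without female 4 or male 3; for males 1 without female 4). Hamp, which encodes the iron hormone hepcidin, had 469, 362, 521 and 584 CPM in females and 312, 182, 136 and 134 in males (log2 difference 1.34, adjusted p = 0.00818). Its paralog Hamp2 had 12.3, 50.8, 23.1 and 5.94 CPM in females and 4.17, 6.04, 2.92 and 2.13 in males (log2 difference 2.60, adjusted p = 0.00494, with a difference of 1.87 without female 2; 0.0536 without female 2). Of 23 iron and retinoid genes, 2 were higher in females and 1 in males (for females 1 without female 2; for males 2 without female 3). The 1 higher in males was the iron transporter Slc11a2 (log2 difference -0.70, adjusted p = 0.005). Of 14 clade A serpins, 1 was higher in males and none in females (for males 2 without female 3 or male 3 and 3 without male 4; for females 1 without female 4 or male 1).

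The interferon response genes that passed the test were all higher in females. For chemokine, cytokine and adhesion genes the called share (16%) was near the 11% over all autosomal genes. Of 25 interferon response genes, 7 (28%, against 5.08% of all autosomal genes) were higher in females and none in males, and 23 of the 25 lay above 0 (median 0.44; 3 without female 2 or female 4 and 4 without male 3). Zbp1, a sensor of nucleic acids, had 19.3, 23.6, 22.3 and 41.6 CPM in females and 10.6, 12.9, 8.30 and 15.1 in males, a log2 difference of 1.21 ± 0.28 (adjusted p = 0.00498). Irf1, an interferon regulatory factor, had 54.5, 46.0, 39.3 and 34.8 CPM in females and 28.1, 28.7, 25.8 and 27.9 in males (log2 difference 0.66, adjusted p = 0.00792). Of 25 chemokine, cytokine and adhesion genes, 4 were higher in females and none in males (median 0.12; 1 without female 1, female 2, male 1 or male 3 and 2 without female 4 or male 2). Cxcl10, an interferon-induced chemokine, had 23.9, 12, 13.0 and 20.5 CPM in females and 6.83, 11.2, 8.42 and 8.87 in males (log2 difference 0.98, adjusted p = 0.0112; 0.0593 without female 1). The sexes did not overlap for Zbp1, Irf1 or Cxcl10.

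Of 26 macrophage genes, 5 (19.2%, against 5.87% of all autosomal genes) were higher in males and none in females (median -0.24; 2 without male 3, 3 without female 1 or male 2 and 8 without male 1). Mpeg1, a pore-forming protein of macrophages, had 325, 504, 402 and 311 CPM in males and 165, 243, 240.0 and 239.6 in females (log2 difference -0.80, adjusted p = 0.00932; 0.0638 without male 2). Gpnmb, a marker of lipid-laden macrophages, had 238, 435, 567 and 389 CPM in males and 143, 189.8, 289.6 and 185 in females (log2 difference -1.01, adjusted p = 0.00981; 0.054 without male 3). Males exceeded females for Mpeg1 without overlap, while male 1 overlapped the females for Gpnmb. Lgals3, which encodes galectin-3, was also higher in males (log2 difference -0.77, adjusted p = 0.0139; up to 0.074 without female 1 or male 3). Of 36 collagen and matrix genes, 1 was higher in males (Mmp12, the macrophage metalloelastase; log2 difference -0.81, adjusted p = 0.0151, up to 0.0693 without male 2 or male 3) and none in females (median -0.10; for females 1 without male 3 or male 4; for males none without male 2 or male 3). None of 13 lymphocyte and neutrophil genes, 8 MHC class II genes and 26 cell cycle genes was called by edgeR (0 at an unadjusted p under 0.05 and 0 by DESeq2), with medians of 0.04, 0.20 and 0.11.

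Summed levels of cell type markers overlapped between the sexes for all but the erythroid list. The 6 hepatocyte markers summed to 75200 to 104000 CPM in females and 60600 to 104000 in males, and none was called. The 7 markers of injury macrophages, of which Trem2 is at 0, summed to 320.0 to 516 CPM in females and 378 to 902 in males, with Gpnmb called. A value of 0 in these counts does not show that Trem2 was absent from the livers, and its cause was not tested. Kupffer cell (273 to 432 against 245 to 512 CPM), stellate cell (410.0 to 607 against 424 to 618), sinusoidal endothelial (223 to 275 against 178 to 290.0) and cholangiocyte markers (112 to 205 against 99.3 to 248) overlapped between the sexes. T and NK cell (4.98 to 10.7 against 3.04 to 9.70), B cell (2.39 to 6.34 against 3.64 to 5.84) and neutrophil markers (7.17 to 11.8 against 2.85 to 8.11, with Ly6g at 0) were low in both. Erythroid markers summed to 150.0 to 232 CPM in females and 243 to 352 in males without overlap, although neither of the 2 tested was called. All 3 adipocyte markers and 3 of 4 exocrine pancreas markers were at 0 in these 8 libraries, as were 2 of 3 skeletal muscle markers. The part that erythroid cells play in the sex differences was not tested.

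The called share was 8.33% of ER stress genes and 37.5% of oxidative stress genes, against 11% of all autosomal genes. Of 24 genes of ER stress and the integrated stress response, 2 were higher in males and none in females (for males 1 without female 2; for females 1 without female 3). Asns, the asparagine synthetase, had 27.9, 17.9, 21.5 and 25.9 CPM in males and 2.41, 1.42, 4.38 and 2.34 in females, a log2 difference of -3.12 ± 0.51 (adjusted p = 0.000149) without overlap. Of 24 oxidative stress and NRF2 target genes, 7 were higher in females and 2 in males (median 0.27; for females 4 without female 4 or male 2; for males 1 without female 4 or male 3). Txn1, which encodes thioredoxin, had 212, 213, 197 and 228 CPM in females and 136, 106, 134 and 141 in males, a log2 difference of 0.72 ± 0.17 (adjusted p = 0.0062). Srxn1, the sulfiredoxin gene, had 156, 192, 183 and 136 CPM in males and 109, 98.0, 100.5 and 129 in females (log2 difference -0.61, adjusted p = 0.00818). Neither gene overlapped, and these antioxidant genes differed in opposite directions. Mt2, a metallothionein, had 26.0, 80.3, 71.0 and 367 CPM in females and 29.8, 25.4, 8.42 and 18.8 in males (log2 difference 2.76, adjusted p = 0.00506, with a difference of 1.54 without female 4; 0.0974 without female 4), and female 4 was far above the rest. Of 17 clock genes, 1 was higher in males and none in females (none without female 3, female 4, male 2 or male 3).

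**Figure D4:**
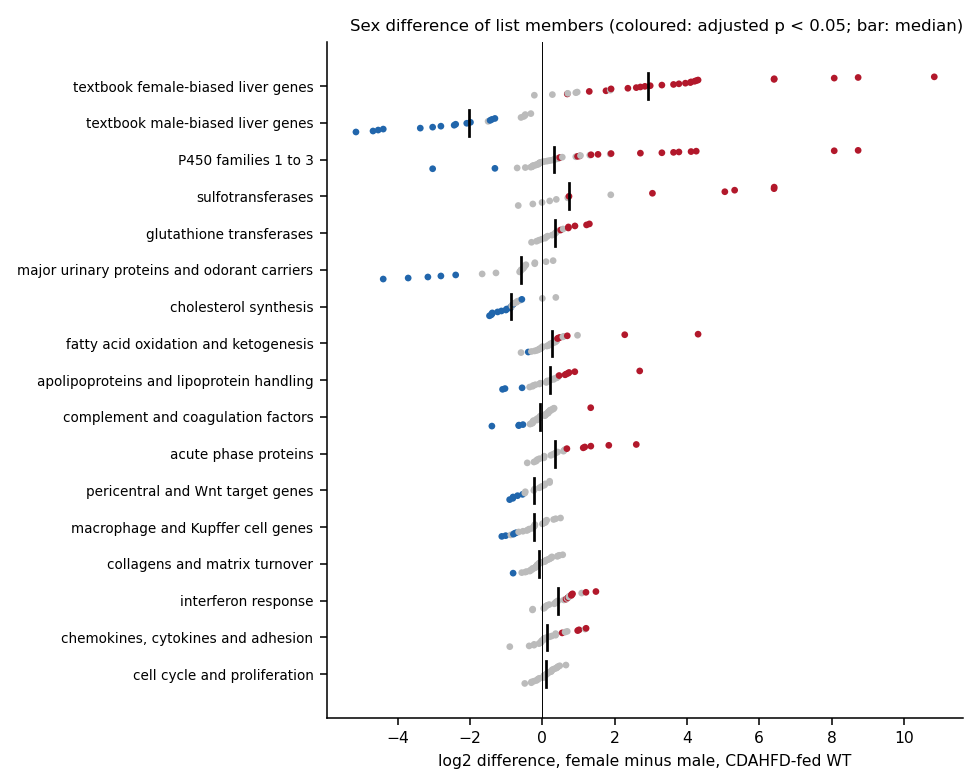
Log2 difference (female minus male, CDAHFD-fed WT) of each tested autosomal member of 17 gene lists; red and blue members were higher in females and males at an adjusted p under 0.05, grey members missed it, and black bars are medians. The textbook female-biased list reaches furthest to the right (median 2.91), and cholesterol synthesis lies to the left as a group (median -0.86).

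The sex difference was then compared between diets, to ask which differences depended on diet. On ND, 2376 autosomal genes (17.9%) differed between the sexes, 1258 higher in females and 1118 in males. Of the genes called on CDAHFD, 772 (53%) were also called on ND, which is 32.5% of the genes called on ND, and 763 of the 772 had the same sign. The interaction test, the sex difference on CDAHFD minus that on ND, called 130 genes (0.978%; 245 without male 1; 1370 had an unadjusted p under 0.05). Of these 130 genes, 111 differed between the sexes on ND, and the difference was smaller on CDAHFD for 108 of the 111. A further 18 were called on CDAHFD and not on ND. The 111 were chosen by the ND test and the interaction test, both of which use the ND libraries. That choice favours a smaller difference on CDAHFD, so the 108 do not measure how often a sex difference was smaller on CDAHFD.

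The textbook lists had smaller median sex differences on CDAHFD than on ND, and the difference between diets passed the test for some of their members. For the female-biased list the median log2 difference was 6.55 on ND (6.28 with the 6 genes that had a group without counts at their bound) and 2.91 on CDAHFD, and for the male-biased list it was -4.64 and -2.04. The interaction was called for 12 of 30 and 8 of 20 members, each with a smaller difference on CDAHFD, and without male 1 for 11 and 14. The others missed the threshold, among them Cyp2b10, whose difference was 3.78 on CDAHFD and 2.66 on ND (interaction adjusted p = 0.577). Cyp2b9 averaged 585 ± 40.8 CPM (mean ± SD, n = 4) in ND-fed females and 1.25 ± 1.44 in ND-fed males, against 174 ± 60.3 and 47.0 ± 23.8 on CDAHFD. On CDAHFD the level was lower in females (log2 change -1.75, adjusted p = 2.34e-05) and higher in males (5.33, adjusted p = 3.22e-11). The sex difference on CDAHFD minus that on ND was -7.08 ± 0.54 on the log2 scale (adjusted p = 1.36e-10). Mup20 averaged 26.7 ± 15.2 and 1513 ± 1006 CPM in ND-fed females and males, and 702 ± 209 and 1003 ± 243 on CDAHFD, and rose in females with an adjusted p of 9.91e-11 while the change in males missed the threshold (adjusted p = 0.18; sex difference on CDAHFD minus that on ND 5.29 ± 0.51, adjusted p = 3.98e-08). Sult3a1 averaged 75.2 ± 27.1 CPM in ND-fed females, had no counts in ND-fed males, and had 3 counts in all females and 2 in all males on CDAHFD (interaction adjusted p = 0.0236, up to 0.179 without male 2 or male 3).

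Cyp4a12a had no counts in ND-fed females and averaged 253 ± 71.3 CPM in ND-fed males, against 1.24 ± 1.74 and 46.1 ± 13.6 CPM on CDAHFD (interaction adjusted p = 0.00905, 0.156 without female 3). It was higher in CDAHFD-fed than in ND-fed females (adjusted p = 0.0238), with a wide spread among the 4 libraries. The pseudogene Mup-ps19, which was called on ND (log2 difference -4.93) and missed the threshold on CDAHFD (-0.61), and the genes Gm6135 and 1810053B23Rik were also among the 12 largest interactions (adjusted p = 0.0392, 8.05e-05 and 0.0155). The interaction of Mup-ps19 was lost without female 2, female 3, female 4, male 2 or male 4 (adjusted p up to 0.0873). C6 differed by -4.21 on ND and -1.39 on CDAHFD, female minus male on the log2 scale (adjusted p of the difference = 2.49e-05).

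Some cholesterol synthesis and pericentral genes differed between the sexes on CDAHFD more than on ND. On ND, 1 of the 20 cholesterol synthesis genes was higher in females and none in males (median 0.10), and the interaction was called for 3, including Cyp51 (-1.41 ± 0.33, adjusted p = 0.025, up to 0.064 without female 2 or female 4) and Idi1 (-2.06 ± 0.42, adjusted p = 0.00784). Cyp51 averaged 336 ± 115 and 334 ± 44.2 CPM in ND-fed females and males, against 104 ± 34.6 and 274 ± 22.7 on CDAHFD, and was lower on CDAHFD than on ND in females (adjusted p = 1.77e-06), while the change in males missed the threshold (adjusted p = 0.366). Glul averaged 1112 ± 85.2 and 920.1 ± 136 CPM on ND and 1149.6 ± 225 and 1847 ± 179 on CDAHFD (sex difference on CDAHFD minus that on ND -0.96 ± 0.20, adjusted p = 0.0106). Cyp39a1 was higher in ND-fed females (1.03 on the log2 scale) and higher in CDAHFD-fed males (adjusted p of the difference = 0.000808). Of the 26 macrophage genes, 13 were higher in females on ND and none in males, against 17.9% of all autosomal genes called on ND in either direction (median 0.94), and the interaction was called for 5 (10 without male 1), Marco, the scavenger receptor, among them (-2.83 ± 0.67, adjusted p = 0.0271, 0.0642 without female 3). Marco had 25.6, 20.3, 8.97 and 3.12 CPM in CDAHFD-fed females and 24.8, 16, 17.5 and 10.1 in CDAHFD-fed males, which overlapped, against 15.1, 18.7, 8.42 and 7.07 CPM in ND-fed females and 2.76, 0.993, 2.88 and 1.31 in ND-fed males, which did not.

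**Figure D5:**
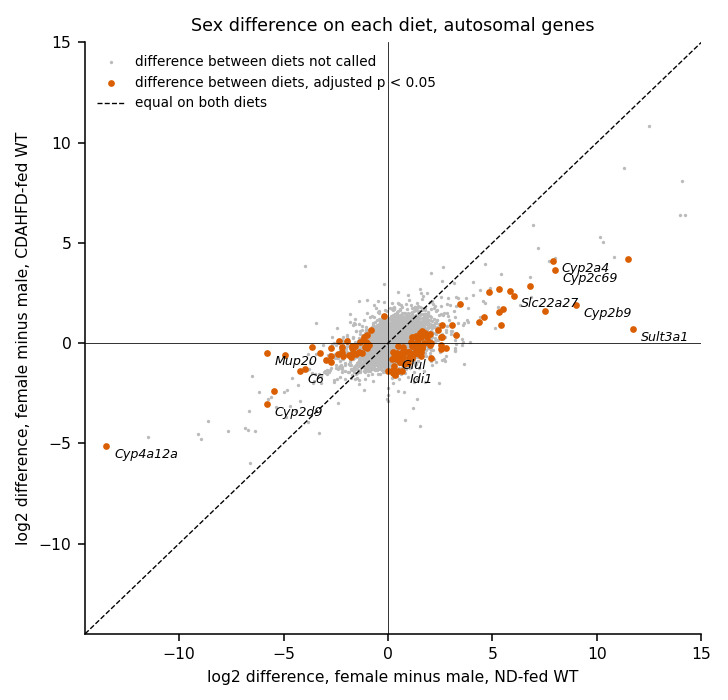
Log2 difference (female minus male) of each autosomal gene tested in ND-fed WT (horizontal) and CDAHFD-fed WT (vertical); orange points are the 130 genes whose difference changed with diet at an adjusted p under 0.05, and the dashed line marks equal differences. Most orange points lie nearer to 0 on the vertical than on the horizontal axis, while Idi1 and Glul lie below 0 on CDAHFD only. Values of genes with a group at 0 counts depend on the fit's prior count.

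The sex comparison in CDAHFD-fed Cyp2b-null mice, which shares no library with the WT comparison, called 2394 autosomal genes (18%). Of the 1457 genes called in CDAHFD-fed WT mice, 953 (65.4%) were called there too, which is 39.8% of the calls in Cyp2b-null mice, and 1440 (98.8%) had the same sign. The sign also matched for 74.5% of the 11841 genes not called in WT mice, and the medians by length group ran from 0.293 to -0.332 in Cyp2b-null mice. Of these libraries, 2 (Cyp2b-null female 3 and male 4) are absent from the study's heat maps, and without them 815 genes were called, 516 of them also in WT mice, and 1435 of the 1457 had the same sign. How much of the shared sign goes with the length trend was not tested. Cholesterol synthesis had 9 genes higher in Cyp2b-null males and none in females (median -0.76; 4 without those 2 libraries), and the textbook female-biased list had 18 higher in females and none in males (16 without them). Some other lists did not keep the balance of calls seen in WT mice. Bile acid synthesis had 4 genes higher in Cyp2b-null females and 1 in males (0 and 3 in WT mice). The steroid hormone list had 9 and 2 (2 and 5 in WT mice), and the pericentral list 2 and 1 (0 and 5 in WT mice). For 5 picked named genes, the log2 difference in Cyp2b-null mice was 1.72 for Mbl2, 1.63 for Prlr, -1.45 for Cyp7b1, -2.99 for Asns and -1.07 for Lpl. Each had the same sign and was past the threshold, also without those 2 libraries. The other named genes are not reported here for Cyp2b-null mice, so these 5 do not measure how many agreed. The difference between genotypes was not tested.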

How the data were processed

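Total liver RNA (RNA integrity number above 8) was extracted with TRIzol, made into libraries with an NEB Next Ultra kit and sequenced as paired reads by the study. Per the labels and the study's methods, the authors checked reads with FastQC, trimmed them with Trimmomatic, aligned them to GRCm38.p6 with GSNAP and counted them per gene with featureCounts of Subread; whether counting used strand is not given in the sources used here, so overlapping and antisense genes cannot be told apart. The deposited values are raw whole-number counts in 1 table for females and 1 for males, each with 41585 gene entries. The tables were joined on gene symbol; 27 symbols turned into dates by a spreadsheet were left out of gene names, and 3183 entries placed on no chromosome were not counted as autosomal. Chromosomes came from RefSeq GRCm38.p6 and GENCODE vM21 names.

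Counts were tested with edgeR 4.0.16 (R 4.3.3): filterByExpr with its default settings (smallest count 10, smallest total 15), TMM normalization, and 1 quasi-likelihood fit of all 32 libraries with a mean for each of 8 groups. The study tested all treatment groups with edgeR, and whether both sexes entered 1 fit is not given in the sources used here. P-values were adjusted by Benjamini-Hochberg over the 14020 genes tested, the threshold for a call was an adjusted p under 0.05, and standard errors are the log2 difference divided by the root of the F statistic. CPM use TMM-scaled library sizes. Total counts ranged from 2906411 to 10166959 over the 32 libraries, and genes with few counts have wide errors. Counting intervals are exact 95% intervals, and a group without counts was given a floor of 3 counts per library. The script was tested on simulated data with known changes.

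Named genes were, with a mean of at least 1 CPM, the 12 largest called and non-overlapping differences in each direction, up to 4 genes with the smallest adjusted p from each of 39 lists, a fixed set of growth hormone and Cyp2b genes, and the 12 largest interactions with diet. Lepr, Slco1a1, Sqle, Hmgcs1, Marco and Egfr were added after their values were seen. The list members Axin2, Lgr5, Cyp2e1 and Oat are given without being counted as named genes. Some genes that fall under this rule are not reported here. The members and lists were chosen with earlier results of these data known. Alternatives were RLE or library size scaling, DESeq2 1.42.0, other filters and thresholds, other sets of libraries, a replicate block, leaving out each library, and, chosen after seeing the data, a transcript-length offset (lowess span 0.3, count of 0.5 added).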

Additional observations from a re-analysis of the deposited data

Results flagged for a closer look

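A library stood apart from the other 3 of its group (Dixon's test at the 95% level) in 24 of the 198 groups of 4 formed by the named genes and the sexes (12.1%). The test's nominal rate of about 1 in 20 assumes independent groups with normally distributed values. This was not checked for these CPM, so no excess is read from the 12.1%. Male 1 was the highest male for Hsd3b5 (27.1 CPM against a group median of 1.41), Mup14 (842 CPM against a group median of 68.5), Mup1 (340.0 CPM against a group median of 21.7), Gm4956 (6.45 CPM against a group median of 1.81), Mup12 (33.2 CPM against a group median of 3.41), Cyp2d9 (555 CPM against a group median of 261), Cyp7b1 (105 CPM against a group median of 41.3), Ces3b (161 CPM against a group median of 83.9), Serpina1e (4739.6 CPM against a group median of 591) and Slco1a1 (339 CPM against a group median of 107). Male 2 was the highest male for Cyp2b13 (1.25 CPM against a median of 0.367). Female 1 was the lowest female for Mpeg1 (165 CPM against a median of 239.8) and Esr1 (14.0 CPM against a median of 21.5). Female 1 was the highest female for Hao2 (12.5 CPM against a median of 2.49), Sult2a5 (8.75 CPM against a median of 0.785) and Angptl8 (77.2 CPM against a median of 11.8). Female 3 was the highest female for Cyp4a12b (2.79 CPM against a median of 0.0781), Serpina1e (223 CPM against a median of 22.1) and Slco1a1 (82.7 CPM against a median of 13.8). Female 4 was the lowest female for Cyp7b1 (10.5 CPM against a median of 14.9) and Gstt1 (164 CPM against a median of 222). Female 4 was the highest female for Cyp3a44 (23.4 CPM against a median of 7.73), Cyp3a41a (78.9 CPM against a median of 11.1) and Mt2 (367 CPM against a median of 75.6).

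The sex difference on CDAHFD differed from that on ND, by the interaction test at an adjusted p under 0.05, for 23 named genes. The difference, in log2 units of female minus male on CDAHFD less the same on ND, was above 0 for Cyp4a12a (8.33), Cyp2d9 (2.75), C6 (2.81), Mup20 (5.29) and Mup-ps19 (4.31), and below 0 for Cyp2a4 (-3.81), Slc22a27 (-3.65), Slc22a26 (-3.98), Cyp2c40 (-2.62), Cyp39a1 (-1.78), Cyp51 (-1.41), Idi1 (-2.06), Glul (-0.96), Hamp2 (-3.22), Slc1a2 (-1.01), Cyp2b9 (-7.08), Cyp2a5 (-1.84), Sult3a1 (-11.02), 1810053B23Rik (-5.91), Cyp3a16 (-4.47), Cyp2c69 (-4.35), Gm6135 (-3.81) and Marco (-2.83). For Cyp4a12a, Sult3a1 and 1810053B23Rik a group on ND had at most 2 counts, so the sizes depend on the fit's prior count. The adjusted p of the interaction rose above 0.05 when a CDAHFD library was left out for Hamp2 (up to 0.146, without female 1, female 3, female 4, male 1, male 2, male 3 or male 4), Slc1a2 (up to 0.127, without female 1, female 2, female 4, male 2, male 3 or male 4), Cyp2a5 (up to 0.137, without female 3, female 4, male 2 or male 4) and Cyp3a16 (up to 0.234, without female 2, female 3, female 4, male 1, male 2, male 3 or male 4), and for Cyp4a12a, Cyp51, Sult3a1, Mup-ps19 and Marco as given above.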

How the results depend on the processing

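The number of autosomal genes called on CDAHFD stayed between 1158 and 1858 over the 10 alternative fits, and the numbers in each direction within 1.5 times except under library size scaling, which gave 450 higher in males. At an adjusted p under 0.1 the counts were 2301 genes in all, 1062 higher in females and 1239 higher in males. With an adjusted p under 0.05 and a difference of over 1 on the log2 scale, the count was 363. The number of interactions with diet was 207 with DESeq2, 447 without the low-count filter, 75 with the WT libraries alone and 209 at an adjusted p under 0.1. With 1 library left out, 652 to 1461 genes were called, 308 to 674 higher in females (419 without male 3) and 344 to 796 higher in males, and 85 (without male 4) to 245 (without male 1) interactions; the cause was not tested. Of 87 named called genes, 21 lost the call in at least 1 of the 8 fits that left out a library. Under the other alternatives 7 lost it in 12 fits: Rxra in 4, Ghr and Ces3b with the CDAHFD-fed WT or all WT libraries alone, Socs2 with the CDAHFD-fed WT libraries alone, Fmo1 and Hadh without the low-count filter and Nfe2l2 with the length offset. Mup20 gained a call without the low-count filter (adjusted p = 0.023). The Cyp2b-null sex comparison fell from 2394 to 815 genes without the 2 libraries absent from the study's heat maps (chosen after seeing the data), while the fit without them called 1858 genes in WT mice. No called gene reversed; among genes that missed the threshold, Stat5b turned to 0.018 with the length offset, and with 1 library left out the log2 differences ran from -0.186 to 0.012 for Stat5b, -0.787 to 0.269 for Bcl6, -1.095 to 0.177 for Onecut1, -0.038 to 0.366 for Esr1, -0.524 to 0.043 for Cyp2a5, -0.718 to 0.088 for Marco and -0.832 to 0.072 for Mup-ps19. Replicate numbers did not pair the samples (correlations of same-numbered deviations 0.0606, -0.0886, 0.0148 and 0.0485), and a fit with the replicate block called 1459 genes and 135 interactions. Depth limits genes with few counts: no difference is shown for those below the filter.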
